A study of Mus musculus with 36 samples.

Results

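The livers of curly tail (ct) mice were compared with those of CBA mice on the arrays of both groups whose RNA was intact, 6 of the 36 arrays of a study of mouse models of neural tube defects. An array was kept where the 3' to 5' signal ratio of the GAPDH control probe sets was at most 1.5, which kept ct replicates 1, 2 and 4 and CBA replicates 1, 2 and 3. The ratio was 1.72 on ct replicate 3 and 52.5 on CBA replicate 4, and these 2 arrays were left out. Each array held liver RNA of 1 mouse, and the study's other 28 arrays, 4 for each of 7 groups, entered the fit to estimate the spread between mice.

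The ct group was drawn from a closed colony bred at random, whose members are all taken to be ct/ct homozygotes, and whose defects do not respond to folic acid in the diet. The CBA mice were wild type CBA/CaJ, the strain named as control for ct. The ct allele and all other genetic differences between the colony and the inbred strain are compared together here and cannot be told apart. The other groups were Pax3 Sp2H heterozygotes and Apob tm1Unc heterozygotes, both with C57BL/6J (B6) as control, Lrp6 Cd heterozygotes with Cd wild types, and Vangl2 Lp heterozygotes with Lp wild types. All were females of 6 to 8 weeks, fasted for 4 to 5 hours before the liver was taken.

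Curly tail is known as a hypomorphic allele of Grhl3, a grainyhead-like transcription factor of surface epithelia that is needed for closure of the caudal neural tube. The adult liver makes and exports fatty acids, cholesterol and plasma proteins, and it clears drugs and aldehydes. In a fasted liver the nuclear receptor PPAR alpha drives genes that burn fatty acids, whereas SREBP-1c, encoded by Srebf1, drives genes that make them.

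Among the 6 arrays the GAPDH ratio ran between 0.814 and 0.927 for ct and between 0.78 and 0.844 for CBA. The actin ratio was 2.08 to 2.65 on the ct arrays and 1.92 to 1.95 on the CBA arrays, so that the groups did not overlap, within 1.63 to 2.93 on the other 28 arrays. The correlation between arrays, over log2 values, was 0.93 to 0.963 within ct, 0.952 to 0.964 within CBA and 0.918 to 0.958 between the groups. Hepatocyte markers were at high signal in both groups, 316600 to 512600 in summed signal for ct and 322500 to 333600 for CBA. Summed stellate cell markers (23860 to 31830 for ct, 17440 to 23400 for CBA) and endothelial markers (23420 to 29990 for ct, 19700 to 23350 for CBA) did not overlap between the groups, while the 9 other marker lists did. The mean log2 level of both lists did overlap, with -0.0241, 0.0258 and 0.0867 for stellate markers in ct, against 0.0777, 0.107 and -0.185 in CBA, and 7 of 13 stellate and 7 of 14 endothelial markers had a negative difference. Much of the stellate sum came from Rgs5 and Dcn, neither called, which averaged 9564 and 10400 in ct, against 5484 and 6874 in CBA. Another probe set of Rgs5 averaged 432.2 in ct and 3397 in CBA, a log2 difference of -2.87, and its others differed by -1.05 and 0.28. In pieces of whole liver, fewer cells of a type and less RNA per cell cannot be told apart, and the part of either marker list, or of the actin ratio, in the results was not tested.

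Grhl3, the gene of the ct allele, was near background in all livers. Its MAS5 signal was 56, 8.11 and 35.2 on ct replicates 1, 2 and 4, against 65.3, 41.2 and 53.4 on CBA replicates 1, 2 and 3, the order used for every gene below. The groups overlapped, the other 28 arrays ran from 4.91 to 85.5, and the log2 difference, ct minus CBA, was -0.53 ± 0.42 (SE) with a limma adjusted p of 0.696, although the probe set lay below the filter on low values. Its paralogs were low as well. Grhl1 had 61.3, 109 and 76.1 in ct, against 32.3, 51 and 81.3 in CBA (adjusted p = 0.693), and Grhl2 had 217, 187 and 140 in ct, against 292, 281 and 199 in CBA (adjusted p = 0.651). Of 19 tested genes of epithelial junctions and known grainyhead targets, none was called by limma. An unadjusted p under 0.05 was reached by 3 of the 19, beside 1835 of all 13184 tested genes. The median log2 difference of the 19 was -0.21, beside -0.0351 over all tested genes, and after quantile normalization it was -0.12 with 1 called.

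Of 13184 genes tested with limma on log2(signal + 23), 237 (1.8%) were called between ct and CBA at an adjusted p under 0.05. Of these, 112 (0.85%) were higher in ct and 125 (0.948%) lower, so that 47.3% of the calls were higher. When each array was centred on its median, which raised the median difference of all genes by 0.11, 184 genes were called and 67.4% of them were higher. Differences among called genes were large, with a median absolute log2 difference of 1.15 beside 0.221 over all tested genes. In total 153 called genes differed more than 2-fold, 78 of them higher in ct and 75 lower, and 33 differed more than 4-fold, 18 higher and 15 lower. The 3 ct values lay entirely above or entirely below the 3 CBA values for 236 of the 237 called genes and for 16.4% of all tested genes. A lack of overlap named below for a called gene thus adds little to its call, and the largest changes were chosen by it. The count depended on single arrays, with 481 calls without ct replicate 1 and 135 without CBA replicate 3. With all 36 arrays 877 genes (6.65%) were called, 448 higher in ct (3.4%) and 429 lower (3.25%), and 182 genes were in both sets, 76.8% of the 237 and 20.8% of the 877. The p-values rest on a spread between mice pooled over 34 arrays of 9 groups, not on that of the ct and CBA mice alone. The median SD was 0.334 within ct, 0.214 within CBA and 0.21 to 0.295 in the other groups. With the 6 arrays alone 78 genes were called, and 3 arrays a group limit the precision.

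Several of the largest increases in ct were of genes near background in CBA livers. Zfp874a, a KRAB zinc finger gene, had signals of 898, 1994 and 1442 in ct, against 69.9, 55.4 and 98.9 in CBA. Its log2 difference was 3.86 ± 0.28 (adjusted p = 3.5e-11). The neighbouring predicted gene Gm7969 had 715, 858 and 1213 in ct, against 52.7, 37.8 and 34.1 in CBA (3.86 ± 0.30, adjusted p = 5.35e-11). Neither gene showed any overlap between the groups, which the rule for the largest changes required. Slc25a48, of the mitochondrial carrier family, had 264, 204 and 189 in ct, against 9.84, 12.3 and 8.46 in CBA (2.86 ± 0.52, adjusted p = 0.000898). Adh6-ps1, annotated as an alcohol dehydrogenase pseudogene, had 221, 163 and 187 in ct, against 4.79, 15.1 and 12.1 in CBA (2.67 ± 0.32, adjusted p = 1.06e-06). Defb1, a beta-defensin, had 1185, 920 and 2046 in ct, against 210, 109 and 143 in CBA (2.95 ± 0.36, adjusted p = 1.15e-06). Ccl27a, a chemokine that attracts T cells to skin, had 709, 698 and 502 in ct, against 139, 53.4 and 93.6 in CBA (2.53 ± 0.24, adjusted p = 1.79e-08). C730036E19Rik and Ccdc30, whose functions are not described here, rose by 2.87 ± 0.46 and 2.59 ± 0.28 on the log2 scale.

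The largest decrease on this scale was of Mff, which recruits the fission machinery to the outer mitochondrial membrane. Its main probe set had signals of 5.05, 58.3 and 20.2 in ct, against 5165, 6142 and 4958 in CBA. The log2 difference was -6.88 ± 0.24 (adjusted p = 4.31e-20), and the ct signals were below the filter level of 61.5 where every CBA array was high. Against such signals the added 23 sets the size, which was -7.54 with 8 added and -5.94 with 64, and the same limit holds for the other genes near background in 1 group. Other probe sets of Mff did not all show it. A second one averaged 16.4 in ct and 283.5 in CBA, a log2 difference of -2.97, whereas another averaged 1191 in ct and 975.5 in CBA, a log2 difference of 0.27. A sequence or transcript difference under some of the probes was not tested, since probe sequences were not used here.

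Lrba, a BEACH-domain protein that steers immune receptors away from lysosomes, had 93.7, 131 and 99.8 in ct, against 1104, 942 and 831 in CBA (-2.91 ± 0.22, adjusted p = 4.75e-11). Its 3 other probe sets, all below the filter, differed by between -0.42 and 1.94, the last with an adjusted p of 0.000141 over all probe sets. Tmie, a protein of the inner ear's mechanotransduction complex, had 197, 6.3 and 11 in ct, against 1044, 897 and 845 in CBA (-3.98 ± 0.68, adjusted p = 0.000355), and its other probe sets differed by -2.27 and -3.05. Ctse, the endosomal protease cathepsin E, had 177, 112 and 125 in ct, against 1431, 1324 and 1515 in CBA (-3.18 ± 0.49, adjusted p = 6.42e-05). In none of the 3 genes did the groups overlap, again by the rule that chose the largest changes. Klf12, a transcriptional repressor, had 861, 107 and 372 in ct, against 4055, 2298 and 2173 in CBA (-2.94 ± 0.51, adjusted p = 0.000426). Sucnr1, the receptor for extracellular succinate, had 336, 471 and 225 in ct, against 1287, 2219.8 and 1585 in CBA (-2.25 ± 0.49, adjusted p = 0.00753). The call of Sucnr1 was lost without ct replicate 4 (adjusted p = 0.0614) and without CBA replicate 2 (0.06). The 12 largest decreases also held 1700001C19Rik (-3.76), Elobl (-3.15), Gm4951 (-2.86), Bach2 (-2.46), Dnph1 (-2.35) and Acsl4 (-2.21). Bach2, a repressor of B and T cell genes, was called with 1 probe set, while the others differed by 0.13 and -0.53. The same held for Ctse, whose second probe set differed by -0.54, and in part for Klf12, whose 2 other probe sets above the filter differed by -1.37 and -0.80.

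**Figure D1:**
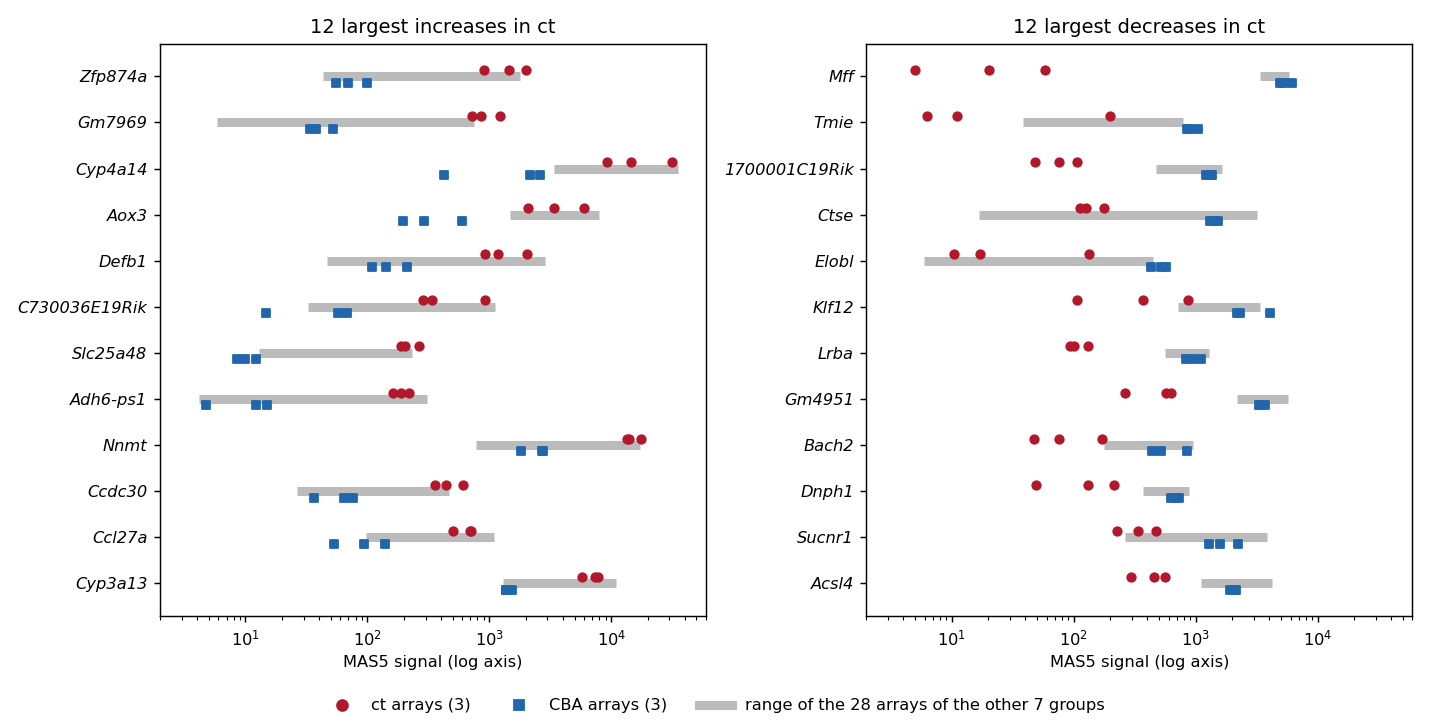
MAS5 signal (log axis) of the 12 largest increases and 12 largest decreases on the 3 ct arrays (red circles) and the 3 CBA arrays (blue squares), with the range of the 28 other arrays as a grey bar. In all 24 genes the ct and CBA signals do not overlap, by the rule that chose them, and Mff is at 5.05 to 58.3 in ct.

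For 103 called genes a further probe set passed the filter, 172 probe sets in all. The sign was the same in 141 of them, 36 of which were called, and opposite in 31, 1 of which, of Zfp991, was called.

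The arrays of the other 7 groups placed these differences. Of the 237 called genes, 37 (15.6%, beside 1.18% of all tested genes) had all 3 ct values outside the range of the 28 other arrays. In 39 (16.5%, beside 1.33%) all 3 CBA values lay outside it. In 161 (67.9%, beside 97.9%) neither group did. Among the 37, ct lay above all other arrays in 5 and below them in 32, and among the 39, CBA lay above in 13 and below in 26. Over all tested genes ct lay above in 56 and below in 99, and CBA above in 77 and below in 99.

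Among the largest differences, the unusual group was sometimes ct and sometimes CBA. Mff had 3372 to 5834 on the other 28 arrays, so its ct signals lay below all of them, and ct differed from the mean of the B6, Cd and Lp wild types by -6.59 (adjusted p = 5.55e-23) and CBA by 0.28 (adjusted p = 0.524). Lrba was 559 to 1276 on the other arrays and 1700001C19Rik 475 to 1660, again with ct alone below the range. Aox3, a liver aldehyde oxidase, was the reverse. It had 6020.2, 2068 and 3386 in ct, against 592, 194 and 293 in CBA (3.33 ± 0.36, adjusted p = 1.24e-07). The other arrays ran from 1475 to 7919, and CBA differed from the other wild types by -3.07 (adjusted p = 2.74e-09), ct by 0.26 (adjusted p = 0.636). Cyp4a14 was likewise low in CBA, by -3.21 against the other wild types (adjusted p = 4.78e-06), while ct differed by 0.36 (adjusted p = 0.68). Over all genes, 958 (7.27%) were called between ct and the other wild types, and 559 (4.24%) between CBA and them. The first count was 1699 without ct replicate 1, 388 without ct replicate 2 and 619 without ct replicate 4, and the second was 331 without CBA replicate 2 and 298 without CBA replicate 3. Both comparisons use arrays of the ct against CBA comparison and so are not independent of it.

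Genes of which the ct values were above all 28 other arrays as well as CBA were few, and the 5 that were called are named here after their values were seen. Tmem51, a membrane protein gene of chromosome 4, had 1957, 2118 and 1768 in ct, against 468, 458 and 375 in CBA and 364 to 1033 elsewhere (2.11 ± 0.19, adjusted p = 6.21e-09). Dnaic1, an intermediate chain of axonemal dynein, had 808, 717 and 795 in ct, against 332, 107 and 184 in CBA (1.91 ± 0.38, adjusted p = 0.00288). Kcnj8, a subunit of ATP-sensitive potassium channels in vessels, had 413, 667 and 511 in ct, against 212, 245 and 286 in CBA (1.01 ± 0.24, adjusted p = 0.0155). Ube2g2, a ubiquitin-conjugating enzyme of ER-associated degradation, and the predicted gene LOC664787 rose by 0.99 ± 0.22 and 1.39 ± 0.31. Leaving out 1 array ended 4 of these calls. The call of Kcnj8 was lost without ct replicate 2 (adjusted p = 0.114) or 4 (0.0502), or CBA replicate 1 (0.0911) or 2 (0.0577). The adjusted p was 0.0872 for LOC664787 without ct replicate 2, 0.058 for Ube2g2 without CBA replicate 1 and 0.0514 for Dnaic1 without CBA replicate 2.

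**Figure D2:**
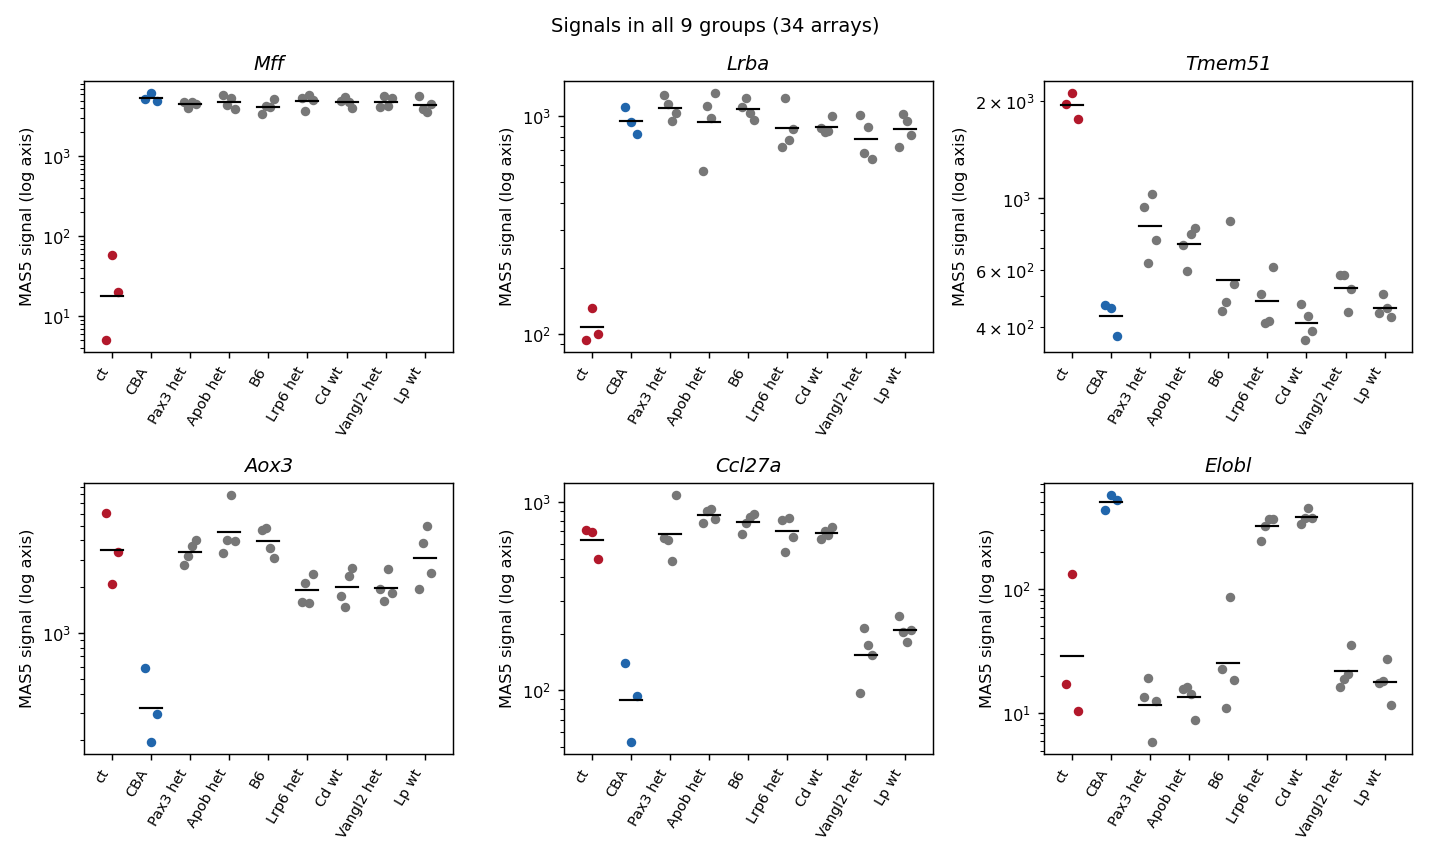
MAS5 signal (log axis) of 6 genes on the arrays of the 9 groups, 1 point per array, with the geometric mean of a group as a black line. Mff and Lrba are low in ct alone, Tmem51 is high in ct alone and Aox3 is low in CBA alone, while Ccl27a is also low in Vangl2 Lp heterozygotes and Lp wild types and Elobl is also high in Lrp6 Cd heterozygotes and Cd wild types.

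Some differences of CBA from ct were shared by a further stock. Zfp874a, Gm7969, Defb1, Adh6-ps1 and Ccdc30 were low in both Cd groups as in CBA. For Zfp874a the mean log2 value was 6.59 in CBA, 6.79 in Lrp6 Cd heterozygotes and 6.82 in Cd wild types. It was 10.45 in ct, 9.84 in B6 and 10.16 in Lp wild types. Ccl27a had 97.1 to 213.6 in Vangl2 Lp heterozygotes and 180.7 to 249.8 in Lp wild types, and 634.7 to 740.4 in Cd wild types. Elobl, related by name to the elongin B subunit, had 17.1, 133 and 10.5 in ct, against 429, 571 and 525 in CBA, and 242.7 to 367 in Lrp6 Cd heterozygotes and 331.8 to 447.7 in Cd wild types. Folr2 set ct and CBA together apart from the rest. It encodes a folate receptor of macrophages and had 189, 204 and 123 in ct, against 92, 124 and 165 in CBA, with 511 to 1316 on the other 28 arrays. H2-D1, a class I antigen-presenting molecule, had 1424, 1737 and 1276 in ct, against 1640.4, 2273 and 2221 in CBA, with a similarly low 1194 to 1772 in Lrp6 Cd heterozygotes and 1440 to 1763 in Cd wild types and 15310 to 21960 in the other 5 groups. That low level belongs to the main probe set, as another of H2-D1 averaged 17520 in ct and 21660 in CBA. Folr2 and the main probe set of H2-D1 were not called between ct and CBA (adjusted p = 0.374 and 0.103), but a further H2-D1 probe set averaged 1251 in ct and 3845 in CBA (-1.60 ± 0.19, adjusted p = 8.74e-07 over all probe sets).

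The ct minus CBA difference was also set against the mean mutant minus control difference of the other 4 lines in the same model. The 2 differed in 185 genes (1.4%), with 88 higher for ct and 97 lower, a count of 299 without ct replicate 1 and 110 without CBA replicate 3. The genes with the smallest p were Zfp874a, Gm7969, Ccl27a and Plekhb2 among those higher for ct, and Mff, 1700001C19Rik, Gm4951 and Lrba among those lower. Plekhb2, a membrane trafficking protein of endosomes, had 741, 732 and 716 in ct, against 152, 234 and 250 in CBA (1.71 ± 0.17, adjusted p = 1.79e-08). Like Zfp874a and Gm7969, it was low in both Cd groups as in CBA. Its mean log2 value was 7.85 in CBA, 8.21 in Lrp6 Cd heterozygotes and 8.24 in Cd wild types, against 9.56 in ct and 9.64 in B6. The other 4 lines and ct differ in mutation and in genetic background, which cannot be told apart.

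Called genes were not spread evenly over the chromosomes. Chromosome 4, which carries Grhl3, held 41 called genes of 799 tested (5.13%), 16 higher in ct and 25 lower, against 196 of 12385 (1.58%) on all others. That made 17.3% of all calls, and 11.4% of them without ct replicate 1. Chromosome 13 followed with 21 of 500 (4.2%), chromosome 1 with 25 of 759 (3.29%) and chromosome 9 with 20 of 723 (2.77%), whereas chromosome 2 held 5 of 1034 (0.484%). Between ct and the other wild types, 9.26% of the genes of chromosome 4 were called and 7.14% of the genes elsewhere, and between CBA and the other wild types 4.26% and 4.24%. Against the other wild types chromosome 4 did not lead, since ct differed in 11.7% of the genes of chromosome 18 and 10.3% of chromosome 14. The differences on chromosome 4 were not concentrated at Grhl3 itself. Among the 25 tested genes on each side of it, 2 of 50 (4%) were called, Zfp593 and Extl1. Zfp593, a nucleolar zinc finger protein, had 660, 1209 and 856 in ct, against 177, 237 and 238 in CBA (1.92 ± 0.24, adjusted p = 1.86e-06), although its other probe set differed by -0.07 and the mean of both was not called (0.93, adjusted p = 0.0691). Extl1, a glycosyltransferase of heparan sulfate, had 216, 96.1 and 159 in ct, against 404, 293 and 331 in CBA (-1.07 ± 0.29, adjusted p = 0.0489), a call lost without ct replicate 2 or 4 and without any 1 of the CBA arrays (adjusted p up to 0.267).

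Farther out, 4 of the next 50 genes (8%) and 9 of the next 100 (9%) were called, then 8 of 200 (4%), and 18 of the remaining 399 (4.51%). Of the 251 runs of 50 neighbouring tested genes over the genome, 123 held no called gene, the median run held 1, and 3 runs held 5. On chromosome 4 one such run, between Cc2d1b and Eif2b3, held Cyp4a14 and Cyp4b1, both P450 enzymes and higher in ct, with 9630013D21Rik, Gpbp1l1 and Ccdc163, all lower. A second, between Ubr4 and Plod1, held Tmem51, Efhd2, an EF-hand protein (2.11 ± 0.22), and Agmat, the enzyme agmatinase (0.58 ± 0.13), all higher, and the zinc finger genes Zfp991 (-2.11) and Zfp979 (-1.89), lower. A further probe set of Efhd2 differed by 0.30 and one of Zfp991 by 1.87, and the mean of the Zfp991 probe sets was not called (adjusted p = 0.995). The last run, on chromosome 13, held 5 genes that were all higher in ct. They were Zfp874a, Gm7969 and 3 further zinc finger genes, Zfp708 (1.33 ± 0.22), Rsl1 (1.01 ± 0.26) and Zfp429 (1.89 ± 0.40). Rsl1, known in mice as a repressor of male-specific liver genes, had 208, 282 and 236 in ct, against 105, 105 and 113 in CBA, with an adjusted p of 0.03, a call lost without ct replicate 2 or 4 and without any 1 of the CBA arrays (up to 0.13). Zinc finger genes of this cluster are near copies of each other, so that their probe sets may share transcripts. Calls also ended for Agmat without ct replicate 2 or CBA replicate 1 (adjusted p up to 0.087), for 9630013D21Rik without ct replicate 1 or CBA replicate 3 (up to 0.057), for Ccdc163 without ct replicate 1 or 4 or CBA replicate 1 or 3 (up to 0.133) and for Zfp429 without CBA replicate 2 (0.0779).

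**Figure D3:**
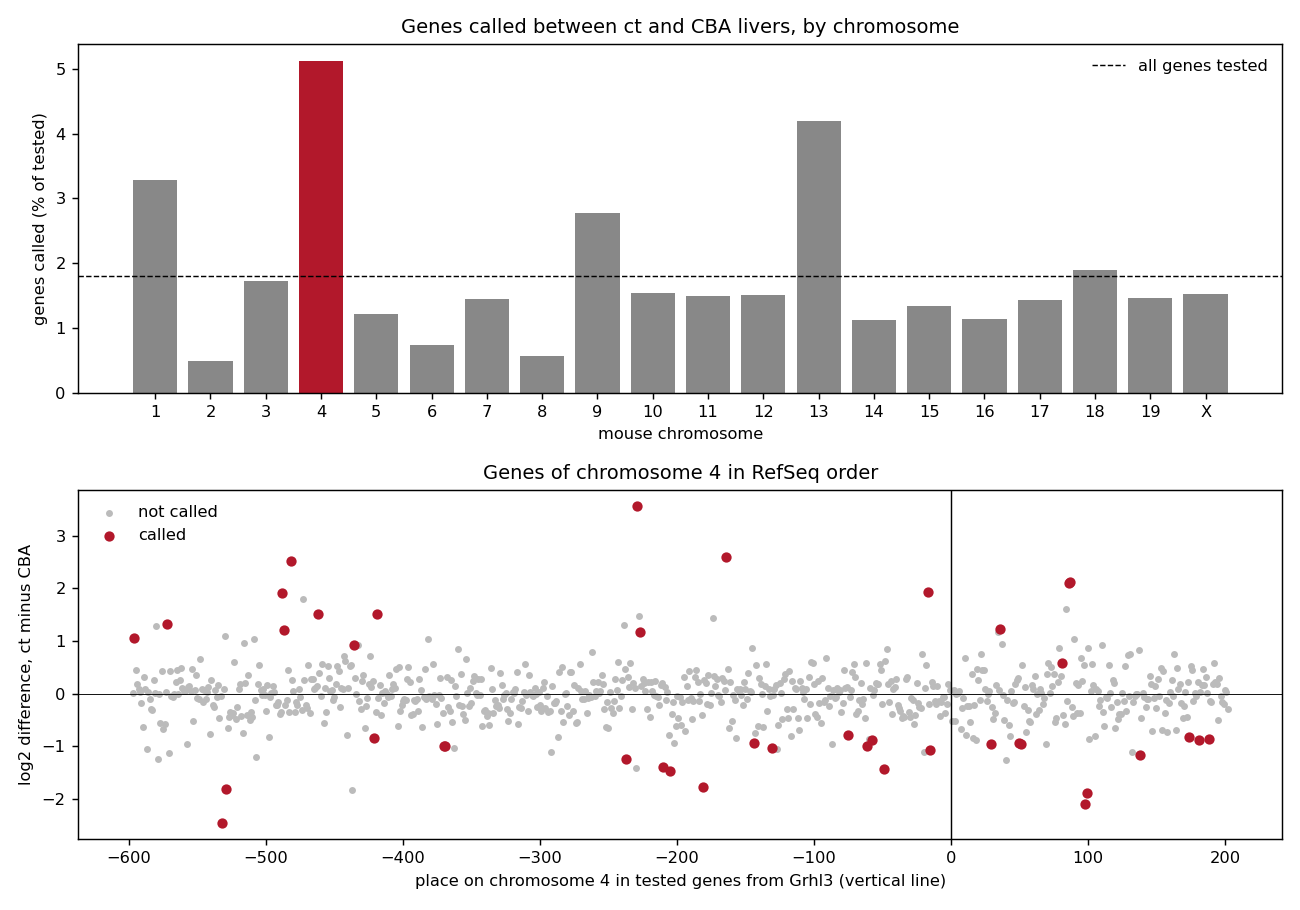
Percent of tested genes called between ct and CBA on each chromosome, and the log2 difference (ct minus CBA) of the chromosome 4 genes by their rank from Grhl3, called genes marked. Chromosome 4 has the highest percentage, 5.13%, and its called genes lie on both sides of Grhl3, 28 before it and 13 after, with none in the 2 runs of 50 tested genes between Gm11487 and Orc1.

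Among genes of fatty acid synthesis, 1 passed the test and most others had a negative difference that did not. Srebf1, the transcription factor of lipogenesis, had 4529, 3307 and 2480.3 in ct, against 10890, 7406 and 9452 in CBA (-1.45 ± 0.30, adjusted p = 0.0051). The groups did not overlap, as for nearly every called gene, and without ct replicate 4 the adjusted p was 0.0578. Of 18 tested lipogenic genes, 17 had a negative difference and 11 an unadjusted p under 0.05, with a median of -0.86. Over all 13184 tested genes, 1835 had an unadjusted p under 0.05 and 237 (1.8%) were called, the bases for such counts in every list. Their median difference was -0.0351, the base for the signs and medians. Acly, which makes cytosolic acetyl-CoA, had 12446, 6266 and 3053 in ct, against 14745, 23806 and 21122 in CBA (-1.65 ± 0.50, adjusted p = 0.0808, and 0.0185 without ct replicate 1). Of its other probe sets above the filter, 1 differed by -1.76 (limma adjusted p = 0.0439 over all probe sets), and the others by -1.70 and 0.08. Fasn, fatty acid synthase, named here outside the rule, had 4219.8, 3175 and 1668 in ct, against 7375, 13006 and 9515 in CBA (-1.77 ± 0.57, adjusted p = 0.112). In both genes all ct values lay below all CBA values, and ct replicate 4 was the lowest. Over all tested genes the groups did not overlap in 16.4%. The mean of the 18 genes, relative to the 3 CBA arrays, was -0.526, -0.597 and -1.43 on ct replicates 1, 2 and 4. It was -2.0 and -1.46 on the arrays left out, ct replicate 3 and CBA replicate 4.

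None of 21 tested cholesterol synthesis genes was called by limma, 18 had a negative difference and 9 an unadjusted p under 0.05, and the median was -0.73. Hmgcs1, the synthase ahead of the rate-limiting reductase, had 4005, 2741 and 4831 in ct, against 5538, 9342 and 9668 in CBA (-1.07 ± 0.37, adjusted p = 0.138). Fdft1, squalene synthase, and Insig1, a sterol-regulated anchor of the SREBP pathway, differed by -0.70 ± 0.22 and -0.74 ± 0.26 (adjusted p = 0.0958 and 0.149). In all 3 genes every ct value was below every CBA value on the 6 arrays. These 3 were named for the smallest p of the list, and the groups did not overlap in 16.4% of all tested genes. The mean of the 21 genes, relative to the 3 CBA arrays, was -0.656, -0.538 and -0.729 on ct replicates 1, 2 and 4, but -1.6 on ct replicate 3 and -1.15 on CBA replicate 4, the arrays left out. The gene list was picked with earlier results of these arrays known, and its medians stayed between -0.62 and -0.76 under the other scalings.

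Of 25 tested fatty acid oxidation genes, 3 were called, all lower in ct, beside 1.8% called of all tested genes. Acsl4 and Acsl3 attach fatty acids to coenzyme A. Acsl4 had 562, 294 and 453 in ct, against 1899, 2138 and 2096 in CBA (-2.21 ± 0.27, adjusted p = 1.63e-06), and Acsl3 had 283, 229 and 323 in ct, against 551, 1098 and 1034 in CBA (-1.56 ± 0.28, adjusted p = 0.000692). Neither overlapped, as for nearly every called gene. The further probe sets of both were lower too, by -1.31 and -1.66 for Acsl4 and by -1.56 and -0.87 for Acsl3. Acaa1a, a peroxisomal thiolase, had 1382, 1084 and 2259.6 in ct, against 2888, 2446 and 3488 in CBA (-0.94 ± 0.22, adjusted p = 0.0131), a call lost without ct replicate 2 (0.131) or CBA replicate 3 (0.121). Over the 25 genes, 15 had a positive and 10 a negative difference. In triglyceride synthesis Gpam, which adds the first acyl chain to glycerol phosphate, was the only one of 18 called. It had 8469, 5926 and 6787 in ct, against 10552, 15668 and 14945 in CBA (-0.95 ± 0.23, adjusted p = 0.0202), and the call was lost without ct replicate 2 (0.11) or 4 (0.0736), or CBA replicate 2 (0.126) or 3 (0.122).

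Of 19 tested PPAR alpha targets, 14 had a positive difference, 8 an unadjusted p under 0.05, and 1 was called. Cyp4a14, which hydroxylates fatty acids at the omega end, had 14502, 9210.3 and 31499 in ct, against 2164, 422 and 2608 in CBA (3.56 ± 0.55, adjusted p = 7.61e-05). Its lowest ct signal was above its highest CBA signal, as the rule for the largest changes required. Cyp4a31, named here outside the rule, was not called with its main probe set (1.47 ± 0.44, adjusted p = 0.0829). A further probe set of Cyp4a31 differed by 2.38 (limma adjusted p = 0.0081 over all probe sets). Pex11a, a peroxisome division protein, had 5877, 7105 and 11543 in ct, against 3484, 4709 and 4679.5 in CBA (adjusted p = 0.066, and 0.0216 without ct replicate 1), and Angptl4, a lipoprotein lipase inhibitor, differed by 0.77 ± 0.24 (adjusted p = 0.101). Among 22 lipoprotein genes, 1 was called. Apoa4, an apolipoprotein of triglyceride-rich particles, had 24663, 41798 and 31841 in ct, against 14709, 15450 and 13757 in CBA (1.13 ± 0.23, adjusted p = 0.00283), and its other probe set differed by 1.47. The median of the lipoprotein list was 0.32, and 0.0554 after quantile normalization.

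**Figure D4:**
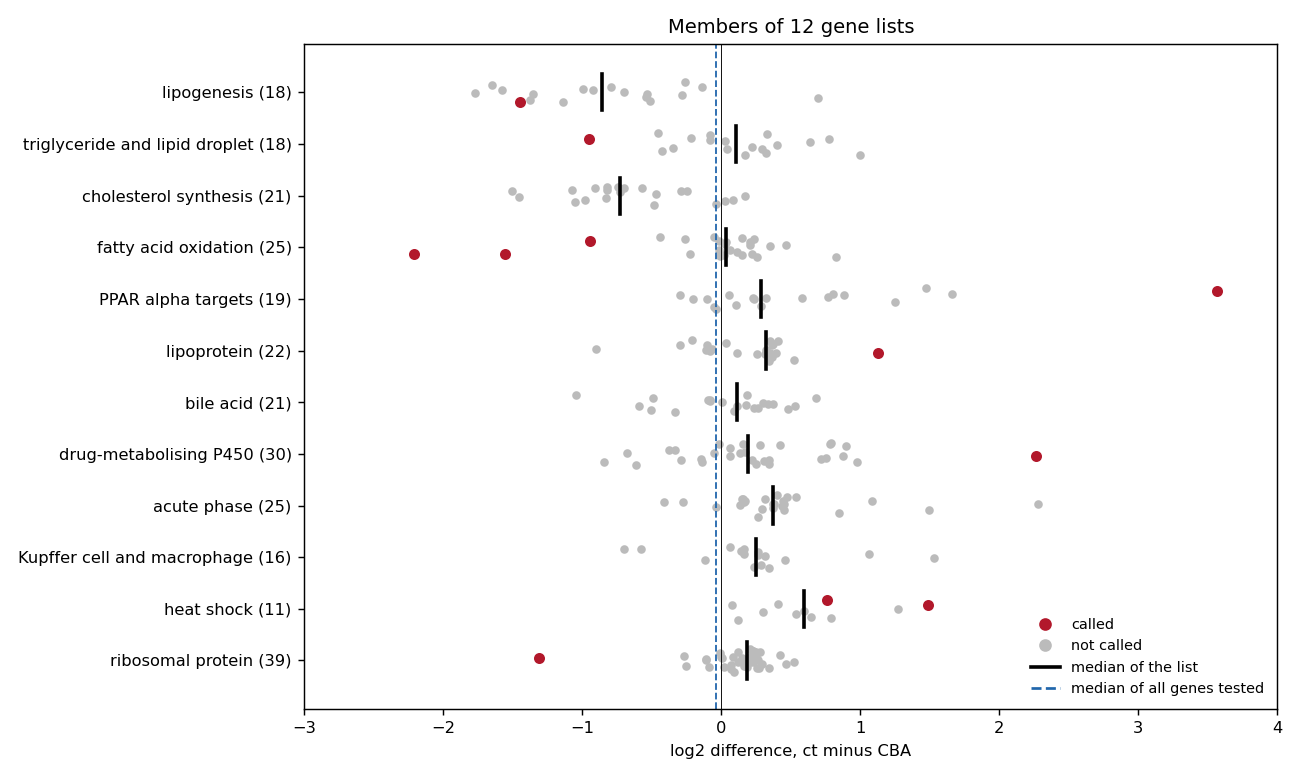
Log2 difference, ct minus CBA, of each tested member of 12 gene lists, with the list's median as a line and called genes marked. Most lipogenic and cholesterol synthesis genes lie below 0, with medians of -0.86 and -0.73, all 11 heat shock genes lie above 0, and few members of any list are called.

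In drug and cofactor metabolism the called genes were all higher in ct. Besides Aox3, Nnmt, which methylates nicotinamide with S-adenosylmethionine, had 13473, 17472 and 13947 in ct, against 2774, 2705 and 1813 in CBA (2.63 ± 0.44, adjusted p = 0.000262). The groups were far apart, and ct also differed from the other wild types, by 2.12 (adjusted p = 9.36e-05), although the other 28 arrays reached 17220. These were the 2 called of 17 genes of aldehyde oxidation and nicotinamide metabolism, and Nnmt was the 1 called of 19 methionine and methyl transfer genes. Of all tested genes 1.8% were called. Cyp3a13, a steroid and drug hydroxylase, had 7322, 5705 and 7843 in ct, against 1527, 1369 and 1367 in CBA (2.26 ± 0.24, adjusted p = 6.6e-08), the 1 called of 30 drug P450 genes. Its mean log2 value was 10.49 in CBA, 10.78 in Lrp6 Cd heterozygotes and 10.6 in Cd wild types, against 12.76 in ct and 12.49 in B6. Ugt3a1, a UDP-sugar transferase, was the 1 called of 33 conjugation genes, at 2459.8, 2158 and 3781 in ct, against 1500.5, 1231 and 1317 in CBA (1.00 ± 0.26, adjusted p = 0.039). That call was lost without ct replicate 4 (0.233) and without any 1 of the CBA arrays (up to 0.152). None of 20 folate cycle genes was called by limma, with 1 at an unadjusted p under 0.05.

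Heat shock genes, whose products refold proteins, all had a positive difference. Of 11 tested, 5 had an unadjusted p under 0.05 and 2 were called, beside 1.8% called of all tested genes. The median of the 11 was 0.60, beside -0.0351 over all tested genes. Hspa8, the constitutive Hsp70 of the cytosol, had 17156, 24553 and 27937 in ct, against 11751, 14462 and 14168 in CBA (0.76 ± 0.18, adjusted p = 0.016), while its other probe sets differed by 0.88, 0.07 and 0.15 and quantile normalization ended the call (0.0713). Hspb1, a small heat shock protein, had 949, 767 and 1447 in ct, against 317, 413 and 324 in CBA (1.49 ± 0.36, adjusted p = 0.0201), and its other probe set differed by 2.18. Neither gene overlapped between the groups, as for nearly every called gene. Without ct replicate 4 the adjusted p was 0.13 for Hspa8 and 0.137 for Hspb1, and without CBA replicate 1 it was 0.107 and 0.0856. Hspa8 also lost its call without ct replicate 2 (0.0691) and Hspb1 without CBA replicate 3 (0.0969). Hsph1, an Hsp110 nucleotide exchange factor, had 1972, 941 and 2723 in ct, against 647, 839 and 632 in CBA (1.27 ± 0.36, adjusted p = 0.0632, and 0.0105 without ct replicate 2). The mean of the 11 genes, relative to the CBA arrays, was 0.603, 0.254 and 1.05 on ct replicates 1, 2 and 4, so ct replicate 4 was the highest in this list as it was the lowest in lipogenesis.

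Promoters of 300 bases, 250 before to 50 after the start site, were read from the RefSeq table of GRCm38.p6 to show where letters of a heat shock element stand. The element was searched as 3 units that alternate between GAA and its complement TTC with 2 bases of any kind between units, on either strand, and overlapping matches were joined into 1 run of capitals. It was in 198 of 32851 promoter windows (0.603%), in 66 of 10636 tested genes with a promoter (0.621%), in 4 of 193 called ones (2.07%) and in 3 of 9 of the heat shock list (33.3%). Those 3 were Hspd1, Hspe1 and Hsph1, none of them called, and the called Hspa8 and Hspb1 were not among them. The windows of Hspd1 and Hspe1 overlap on opposite strands and hold the same stretch, so that 1 site was counted for both. Chordc1, an Hsp90 co-chaperone that is not on that list, and Hsph1 were picked from the genes that hold it close to the start site. The other called genes with it were Acnat2, Plscr4 and Tmcc2, with the first match at positions -10, -58 and -23 from the start site. A second Hsph1 window, not shown, holds the same match 36 bases after its start site. Chordc1 had 1482, 1583 and 2655 in ct, against 796, 983 and 887 in CBA (1.04 ± 0.24, adjusted p = 0.0121), and lost its call without ct replicate 4 (0.133), CBA replicate 1 (0.0696) or CBA replicate 3 (0.0515). The last sequence, of Qrich1, holds the 8-letter palindrome AACCGGTT of the grainyhead family in capitals, which 48 windows (0.146%), 28 tested genes (0.263%) and 1 called gene (0.518%) hold. The 3 genes shown were chosen after their values were seen, the windows are chr9:18292017-18292316 (plus strand), chr5:149636266-149636565 (minus strand) and chr9:108516837-108517136 (plus strand), and each is written 5′ to 3′ along its gene.
Chordc1: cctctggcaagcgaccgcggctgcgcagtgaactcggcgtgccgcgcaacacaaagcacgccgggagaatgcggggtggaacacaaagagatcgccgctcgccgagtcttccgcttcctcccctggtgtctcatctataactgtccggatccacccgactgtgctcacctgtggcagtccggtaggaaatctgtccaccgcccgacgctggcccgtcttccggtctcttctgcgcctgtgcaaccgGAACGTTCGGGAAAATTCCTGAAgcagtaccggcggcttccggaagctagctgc
Hsph1: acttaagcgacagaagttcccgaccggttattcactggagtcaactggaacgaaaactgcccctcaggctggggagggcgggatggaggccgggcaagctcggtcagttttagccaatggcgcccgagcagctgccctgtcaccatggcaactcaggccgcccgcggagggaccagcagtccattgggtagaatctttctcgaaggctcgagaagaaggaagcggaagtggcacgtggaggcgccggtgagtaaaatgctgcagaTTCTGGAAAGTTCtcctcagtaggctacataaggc
Qrich1: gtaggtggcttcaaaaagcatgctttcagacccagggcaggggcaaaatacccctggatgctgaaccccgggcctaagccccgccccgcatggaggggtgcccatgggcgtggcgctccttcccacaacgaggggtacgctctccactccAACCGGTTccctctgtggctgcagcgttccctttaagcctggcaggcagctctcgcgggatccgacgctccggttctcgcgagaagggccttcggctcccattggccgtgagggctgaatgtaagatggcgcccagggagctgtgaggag
Chordc1 held 3 overlapping matches and Hsph1 1 match, after its start site. Qrich1, a nuclear protein of the stress response, had 985, 783 and 963 in ct, against 303, 221 and 189 in CBA (1.86 ± 0.19, adjusted p = 3.39e-08). Here CBA was the group that stood apart, with 658 to 1199 on the other 28 arrays and a difference of 0.00113 between ct and the other wild types (adjusted p = 0.998). A match is a description of these letters, not a binding site or a cause.

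Of 25 acute phase genes limma called none, with 22 positive differences, 9 at an unadjusted p under 0.05 and a median of 0.37. Hamp, the iron hormone hepcidin, had 56636, 83163 and 49333 in ct, against 1145, 47104 and 37156 in CBA (adjusted p = 0.0582), where CBA replicate 1 alone was low. Of 16 Kupffer cell and macrophage markers limma called none, with 13 positive differences, 3 at an unadjusted p under 0.05 and a median of 0.25. Lyz2, macrophage lysozyme, had 1366, 3306 and 2568 in ct, against 1005, 1374 and 894 in CBA (adjusted p = 0.0574). Csf1r, the receptor that keeps macrophages alive, had 3612, 2520.1 and 3935 in ct, against 5285, 5288 and 4302 in CBA (adjusted p = 0.0674), so these 2 markers pointed in opposite directions. Some of these genes were called when 1 array was left out. Without ct replicate 1, Lyz2 (adjusted p = 0.00619), Csf1r (0.0474) and Marco, a scavenger receptor of macrophages (0.0227), were called, as was Csf1r without ct replicate 4 (0.043). Hamp was called without CBA replicate 2 (0.00243) or 3 (0.0096), and Hp, the hemoglobin scavenger haptoglobin, without CBA replicate 1 (0.0373). Lyz2 was also called after centring on the median (0.0355). Of 8 neutrophil and monocyte markers none was called or had an unadjusted p under 0.05.

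Further lists held 1 called gene each. Per3, a clock gene, had 350, 297 and 300 in ct, against 991, 613 and 659 in CBA (-1.17 ± 0.29, adjusted p = 0.0254), the 1 called of 19 clock genes, and its call was lost without ct replicate 2 or 4 and without CBA replicate 1 or 3 (adjusted p up to 0.165). Of its other probe sets above the filter, 1 differed by -1.80 and 3 by 0.27 to 0.37, and the mean of all was not called (-0.40, adjusted p = 0.641). Alad, the second enzyme of heme synthesis and the 1 called of 20 iron genes, had 7612, 8692 and 7788 in ct, against 16936, 13577 and 17692 in CBA (-0.99 ± 0.18, adjusted p = 0.000915), and another probe set of it differed by -0.63 (adjusted p = 0.464). Rpl14, the 1 called of 39 ribosomal protein genes, had 190, 136 and 164 in ct, against 441, 437 and 428 in CBA (-1.31 ± 0.24, adjusted p = 0.000898), while 32 of the 39 had a positive difference. The median of the 39 was 0.184, and 0.00959 after quantile normalization, and their mean relative to CBA was -0.199, 0.535 and 0.00824 on ct replicates 1, 2 and 4. In Per3, Alad and Rpl14 the groups did not overlap, as for nearly every called gene. Mff was the 1 called of 14 mitochondrial fission and fusion genes. Among cell type markers, Fcgr2b, an inhibitory Fc receptor of liver sinusoidal endothelium, was 1 called of 14, at 3435, 6850.4 and 5441 in ct, against 1871, 2465 and 2598 in CBA (1.13 ± 0.19, adjusted p = 0.00036). Pdgfrb, a receptor of stellate cells, was 1 called of 13, at 161, 122 and 136 in ct, against 364, 321 and 253 in CBA (-1.04 ± 0.25, adjusted p = 0.0202). Gzmb, granzyme B of cytotoxic lymphocytes, was 1 called of 12, at 9.63, 20.8 and 12.1 in ct, against 103, 72 and 126 in CBA (-1.72 ± 0.42, adjusted p = 0.0203). The calls of Pdgfrb and Gzmb were lost without ct replicate 4 (0.0702 and 0.0735) or CBA replicate 1 (0.114 and 0.0753), that of Pdgfrb also without ct replicate 2 (0.0879) or CBA replicate 2 (0.0816), and that of Gzmb without CBA replicate 3 (0.127). The remaining markers, of hepatocytes (9 tested), cholangiocytes (6), erythroid cells (4), exocrine pancreas (6), adipocytes (5) and skeletal muscle (5), held no called gene.

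No gene was called by limma among 21 bile acid, 20 sex-biased, 19 antigen presentation, 28 interferon-stimulated, 22 glucose, 22 urea cycle and amino acid, 24 ER stress, 17 neural tube and planar polarity, or 20 DNA replication genes. At an unadjusted p under 0.05 these lists held 3, 1, 3, 3, 5, 3, 1, 4 and 0 genes, beside 1835 of all 13184 tested genes. The neural tube list had its smallest p in Celsr2, a planar polarity cadherin, at 111, 52.2 and 143 in ct, against 248, 183 and 155 in CBA (adjusted p = 0.113).

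The ct mice varied more among themselves than the CBA mice did. The median SD of log2 values over the tested genes was 0.334 for the 3 ct arrays and 0.214 for the 3 CBA arrays, and 0.21 to 0.295 in the other 7 groups. In 9208 of the tested genes (69.8%) the SD was larger in ct. The genes share arrays, so this describes 6 mice, and the difference in spread was not tested.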

How the data were processed

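RNA of 36 livers was measured on Affymetrix arrays, 1 per mouse. The authors deposited linear signal intensity computed with MAS5, per the submitters' processing notes (version not given in the sources used here), and each array had a trimmed mean of about 500. MAS5 values are noisy near background. Of 45101 probe sets, 64 were array controls, 34958 had 1 gene symbol in the platform's table, 932 several and 9160 none. Symbols and gene order came from the RefSeq table of GRCm38.p6.

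Computed here were log2(signal + 23) values of 34 arrays. Each gene was represented by its probe set of highest mean, which had to pass a mean log2 of 6.4001 (40th percentile), which left 13184 genes. A limma 3.58.1 model (R 4.3.3) held 9 group means and a variance trend, with two-sided tests and Benjamini-Hochberg adjustment over all tested genes. A called gene had an adjusted p under 0.05. The procedure was tested on simulated data. All value columns were used. Figures used matplotlib 3.10.9.

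Members and all 38 gene lists were chosen with earlier results of these data known. Named were the 12 largest changes in each direction without overlap, up to 5 called members a list or 3 by smallest p, Grhl genes with called neighbours of Grhl3, the 4 smallest p in each direction against the other lines, and their other probe sets. Genes named in dense runs, outside the range of the other arrays or with promoters, and Fasn, Hsph1 and Cyp4a31, were chosen after their values were seen. Alternatives were other scalings, offsets, filters, probe set rules, weights, a replicate block, the 6 arrays alone, the left-out arrays put back and each array left out.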

Additional observations from a re-analysis of the deposited data

Results flagged for a closer look

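Tests of the ct minus CBA difference against the mean difference of the 4 other lines set apart 185 genes. The difference between the 2 effects was 3.70 ± 0.31 for Zfp874a (adjusted p = 1.29e-09), 3.83 ± 0.33 for Gm7969, 2.64 ± 0.27 for Ccl27a and 1.73 ± 0.18 for Plekhb2 on the log2 scale. It was -7.00 ± 0.27 for Mff (adjusted p = 6.35e-19), -3.82 ± 0.28 for 1700001C19Rik, -2.80 ± 0.24 for Gm4951 and -2.82 ± 0.24 for Lrba. Each of these 8 genes was also called between ct and CBA, which shares the arrays. For Zfp874a, Gm7969 and Plekhb2 both Cd groups were low as CBA was, and B6 and Lp wild types were high as ct was.

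The array of ct replicate 3, left out above for its GAPDH ratio, carried a signal that the 3 ct arrays used did not. Relative to the mean of the 3 CBA arrays, its acute phase genes averaged 2.68 on the log2 scale, against 0.234, 0.313 and 0.766 on ct replicates 1, 2 and 4. Its Kupffer cell and macrophage markers averaged 2.42, against -0.102, 0.389 and 0.443, and its neutrophil and monocyte markers averaged 4.42. The part of RNA quality in these values was not tested.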

How the results depend on the processing

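The 237 calls between ct and CBA became 1973 with array weights, 78 with the 6 arrays alone (75 of them among the 237), 411 with ct replicate 3 put back, 363 with CBA replicate 4, 877 with both and 453 over all probe sets. With 1 array left out they ran from 135 to 481. Calls between ct and the other wild types, 958 as reported, were 3259 with weights, 1492 with ct replicate 3, 553 with CBA replicate 4 and 1479 over all probe sets, and 388 to 1699 with 1 array left out. For CBA against them (559) the counts were 1537 with weights, 1307 with CBA replicate 4, 1142 with both arrays, 946 over all probe sets and 298 to 629. Against the other lines (185) they were 1318 with weights, 489 with both arrays, 351 over all probe sets and 110 to 299. The share of calls on chromosome 4, a measure added after the data were seen, was 17.3% as reported, 8.36% with weights, 10.1% with both arrays and 11.4% to 23.7% with 1 array left out. Of 1273 values of 59 named called genes under 22 alternatives, 1144 kept the call, 127 lost it and 2 reversed, both of Bach2, at 0.062 with ct replicate 3 back and 0.13 without shared probe sets, where another probe set stood for the gene. Of the 59, 22 lost the call with the 6 arrays alone, among them Cyp4a14 (adjusted p = 0.0518), Apoa4 (0.0653), Klf12 (0.0735) and Fcgr2b (0.143), and 8 with CBA replicate 4 put back, among them Ctse (0.217) and Alad (0.48). The labels list for each ct mouse the CBA mouse of the same number as its control. They name no shared litter, day or batch, and the 6 arrays hold only 2 such pairs, so the main fit did not pair mice by number. The deviations of those 2 pairs correlated at 0.31 and 0.213, above the -0.306 to 0.13 of ct and CBA arrays with unlike numbers. Whether arrays of the same number share a source of variation was not tested. With a replicate block 197 genes were called, 189 of them among the 237, Acly was called (adjusted p = 0.0282), and Extl1 (0.097), Pdgfrb (0.0559) and Ugt3a1 (0.0715) were not.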
